A study of Mus musculus with 17 samples.

Results

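The genes described here encode integrin chains and other surface molecules with which T cells hold on to vessel walls, matrix and neighbouring cells. They are the 10 rows named Itga1, Itgae, Itga4, Itgal, Itgb1, Itgb2, Itgb7, Cdh1, Cd44 and Selplg among the 48709 rows of a gene count table, and all 10 were found by name. The table holds RNA sequencing counts of CD8+ T cells, the cytotoxic T cell lineage, in 17 libraries of 4 groups. APP-PS1 brain had 4 libraries, 3 from males and 1 from a female, and WT brain had 5 from females. APP-PS1 blood had 3 libraries, 2 from males and 1 from a female, and WT blood had 5 from females. APP-PS1 mice carry transgenes for a chimeric mouse/human amyloid precursor protein with the Swedish mutation (Mo/HuAPP695swe) and for a human presenilin 1 mutant (PS1-dE9), and the prion protein promoter directs both transgenes to neurons of the central nervous system. WT mice are the wild type strain of the study. The series describes the mice as aged, and all were moved out of pathogen-free housing a few days before use. Sex and strain largely coincide, and the design names 7 APP-PS1 and 10 WT mice, as many as there are libraries, without tying libraries to mice, so p-values measure the spread between these libraries, which may in part be technical. The study set brain against blood to describe T cells in the tissue, and APP-PS1 against WT to describe the effect of the transgenic strain.

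Integrins are heterodimers of an alpha and a beta chain. The alpha chain largely sets the ligand, and partner chains must meet before either is shown well at the cell surface. The beta 1 chain pairs with alpha 1 to bind collagen and with alpha 4 to bind VCAM-1, beta 2 pairs with alpha L as LFA-1 to bind ICAM-1, and beta 7 pairs with alpha 4 to bind MAdCAM-1 or with alpha E (CD103) to bind E-cadherin, the product of Cdh1. PSGL-1, encoded by Selplg, binds selectins when T cells roll on vessels, and CD44 binds hyaluronan in the matrix. CD103 and the alpha 1 chain (CD49a) are surface markers by which many tissue-resident CD8+ T cells are recognised, and antibodies to the alpha 4 chain block T cell entry into the inflamed brain.

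The libraries were shallow, with 27646 to 214670 counts, and the 3 APP-PS1 blood libraries (39055 to 46336 counts) all lay under the 5 WT blood libraries (62604 to 214670 counts). The 7 marker genes of CD8+ T cells summed to 7922 to 9652 CPM (counts scaled to a common library total) in APP-PS1 brain, 8473 to 10829 CPM in WT brain, 6539 to 7056 CPM in APP-PS1 blood and 7188 to 9340 CPM in WT blood. The defining CD4 T cell markers Cd4 and Foxp3, the microglial markers P2ry12, Tmem119, C1qa and Trem2, and the endothelial markers Cldn5 and Cdh5 had no count in any library. The 4 haemoglobin genes of red cells summed to 36.2 to 368 CPM in APP-PS1 brain and 156 to 873 CPM in WT brain, against 2970 to 8071 CPM in APP-PS1 blood and 2152 to 9967 CPM in WT blood. These sums moved with every comparison of brain with blood, and their part in the results was not tested. WT blood replicate 4, labelled female, had 1 count of the female-specific RNA Xist, against 4 to 68 in the other female WT libraries. APP-PS1 brain replicate 1 and APP-PS1 blood replicate 1 stood apart by the highest scaling factors. Brain was dissociated and freed of myelin on a density gradient while blood underwent red cell lysis, so tissue and preparation cannot be told apart.

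Per length of exon, the beta chains and Selplg were the most abundant of the 10 genes in every group, and Itga1 and Itgae were among the least abundant. These are mean CPM per kb of exon, a level that allows genes to be compared only if reads cover whole transcripts, which was not tested. In APP-PS1 brain the means were 113 for Itgb1, 91.6 for Selplg, 79.3 for Itgb2, 67.8 for Itgb7, 21.2 for Itga4 and 14.4 for Itgal. They were 11.2 for Cdh1, 8.17 for Cd44, 7.06 for Itgae and 2.74 for Itga1. Each of the 4 most abundant genes lay within 1 SD of the next there (SD 46.1, 38.3, 29.6 and 16.9 CPM per kb), while the step from Itgb7 down to Itga4 (SD 4.39 CPM per kb) was larger than the spread of either. WT brain kept Itgb1 at the top with 133 CPM per kb, above Selplg with 125, while blood had Selplg at the top, with 167 CPM per kb in APP-PS1 blood and 157 in WT blood. Itgb1 stood at 47.2 CPM per kb in APP-PS1 blood and 79.7 in WT blood, below Itgb7 with 85.2 and 93.2 CPM per kb in the same groups. Per kb of exon, each alpha chain thus had a lower mean level than the beta chains with which it pairs. In plain CPM, not scaled to length, mean Itga4 exceeded mean Itgb7 in every group (364 against 239 CPM in WT brain). Itga4 also exceeded Itgb1 in blood (296 against 193 CPM in APP-PS1 blood), but not in brain. The standard deviation of Itgb1 was 38.2 CPM per kb in WT brain, so its place above Selplg there was within the spread. The 3 genes with the lowest counts, Itga1, Itgae and Cdh1, did not pass the expression filter of about 117 CPM in at least 3 libraries, and the other 7 did.

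**Figure D1:**
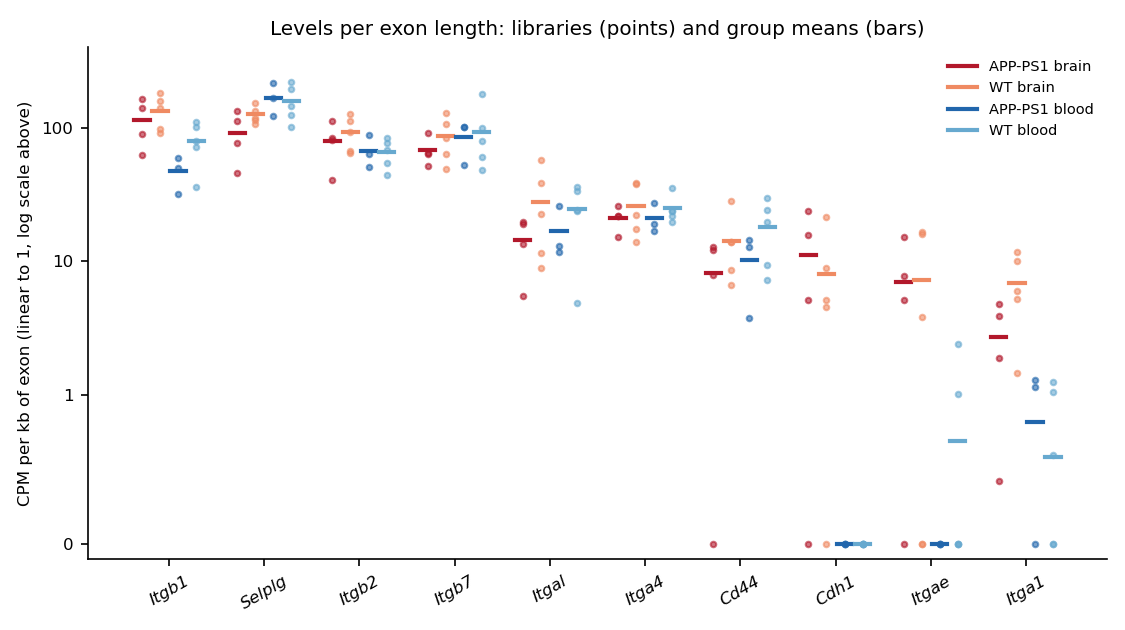
Level of each gene in CPM per kb of exon (vertical axis, linear up to 1 and logarithmic above), with 1 point per library and a bar at each group mean; genes run from the highest to the lowest WT brain mean. Itgb1 leads in WT brain with a mean of 133 CPM per kb and Selplg leads in WT blood with 157, while Cdh1 lies at 0 in all 8 blood libraries.

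Of the 7 members that passed the filter, Itgb1 rose in brain. It encodes the beta 1 chain shared by collagen, laminin, fibronectin and VCAM-1 receptors. Itgb1 stood at 253, 363, 569 and 666 CPM in APP-PS1 brain, 639.7, 400.2, 371, 736 and 574 CPM in WT brain, 205, 129 and 243 CPM in APP-PS1 blood and 326, 293, 446, 415 and 147 CPM in WT blood. All 4 APP-PS1 brain libraries were above all 3 APP-PS1 blood libraries, whereas 2 of the 5 WT brain libraries lay within the range of WT blood. The means were 463 ± 188 CPM (SD, n = 4) in APP-PS1 brain and 544 ± 156 CPM (SD, n = 5) in WT brain, against 193 ± 57.9 CPM in APP-PS1 blood (SD, n = 3) and 325 ± 118 CPM in WT blood (SD, n = 5). With brain set against blood over the mean of both strains, the log2 fold change was 1.01 (SE 0.26, adjusted p = 0.0174, quasi-likelihood F test of edgeR, adjusted over 2366 genes by Benjamini-Hochberg). Itgb1 was 1 of 7 tested members called in that comparison, in which 2.62% of all tested genes were called, and 2 of the 7 had an unadjusted p under 0.05, as did 13.4% of all tested genes. Called means an adjusted p under 0.05. In a bulk sample, fewer cells of a type and less RNA per cell cannot be told apart.

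Within a strain the difference kept its direction and did not pass the threshold. The log2 fold change of Itgb1 was 1.33 in APP-PS1 brain over APP-PS1 blood (SE 0.43, adjusted p = 0.160) and 0.69 in WT brain over WT blood (SE 0.30, adjusted p = 0.454). Of these 7 members none was called in either comparison by edgeR or DESeq2. Of all genes, edgeR called 0.549% in APP-PS1 mice and 0.761% in WT mice. DESeq2 called 5 of 2366 genes higher and 13 lower in APP-PS1 mice, and 8 higher and 18 lower in WT mice. By edgeR 2 of the 7 in APP-PS1 mice and 1 in WT mice had an unadjusted p under 0.05, as did 10.7% of all tested genes in APP-PS1 mice and 7.27% in WT mice. The test of the difference between the strains' changes did not pass (0.63 on the log2 scale, SE 0.53, adjusted p = 0.999). That test called none of the 7 members, none at an unadjusted p under 0.05 either, and 0.0423% of all genes (4.95% at an unadjusted p under 0.05). Over both strains the log2 fold change was 0.91 when APP-PS1 blood replicate 2 was left out (adjusted p = 0.0936) and 0.87 when APP-PS1 brain replicate 4 was (adjusted p = 0.0867), so the size stayed close while the call was lost. The call held without the 2 libraries that stood apart (adjusted p = 0.0298), an alternative chosen after the data were seen.

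Itgb1 lies on chromosome 8 of GRCm38 from 128685654 to 128733200 on the plus strand, and Itga1, its collagen-binding partner, lies on chromosome 13 from 114953096 to 115101964 on the minus strand. Their promoters are shown because these partner chains both had higher mean levels in WT brain than in WT blood. Each run holds the 250 bases before the start of the gene on the strand of the gene, from RefSeq on GRCm38.p6, at chr8:128685404-128685653 for Itgb1 and chr13:115101965-115102214 for Itga1, and capitals mark the GC box GGGCGG, the core of sites bound by Sp1.
Itgb1: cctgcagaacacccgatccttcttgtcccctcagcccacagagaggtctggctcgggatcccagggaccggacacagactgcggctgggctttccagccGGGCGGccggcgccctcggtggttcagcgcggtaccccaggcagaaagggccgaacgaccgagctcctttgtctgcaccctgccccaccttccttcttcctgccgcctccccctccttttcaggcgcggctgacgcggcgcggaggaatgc
Itga1: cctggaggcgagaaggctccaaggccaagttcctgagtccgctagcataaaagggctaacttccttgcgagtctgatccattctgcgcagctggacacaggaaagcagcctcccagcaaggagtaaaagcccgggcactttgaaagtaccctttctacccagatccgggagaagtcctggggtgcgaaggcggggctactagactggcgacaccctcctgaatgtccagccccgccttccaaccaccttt
The Itgb1 run is 68.0% G and C and holds the box once, and the Itga1 run is 57.6% G and C and does not hold it. Promoters of 5 members (Itga1, Itga4, Itgb1, Itgb7 and Cd44) were matched and searched on both strands. GGGCGG was found in those of Itgb1 and Itga4, and in 32.7% of 32851 promoters of the same length. TGTGGT, a core bound by Runx factors, was found in that of Itga4 and in 14.05% of all, and CACCTG, an E-box, in none of the 5 and in 17.2% of all.

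**Figure D2:**
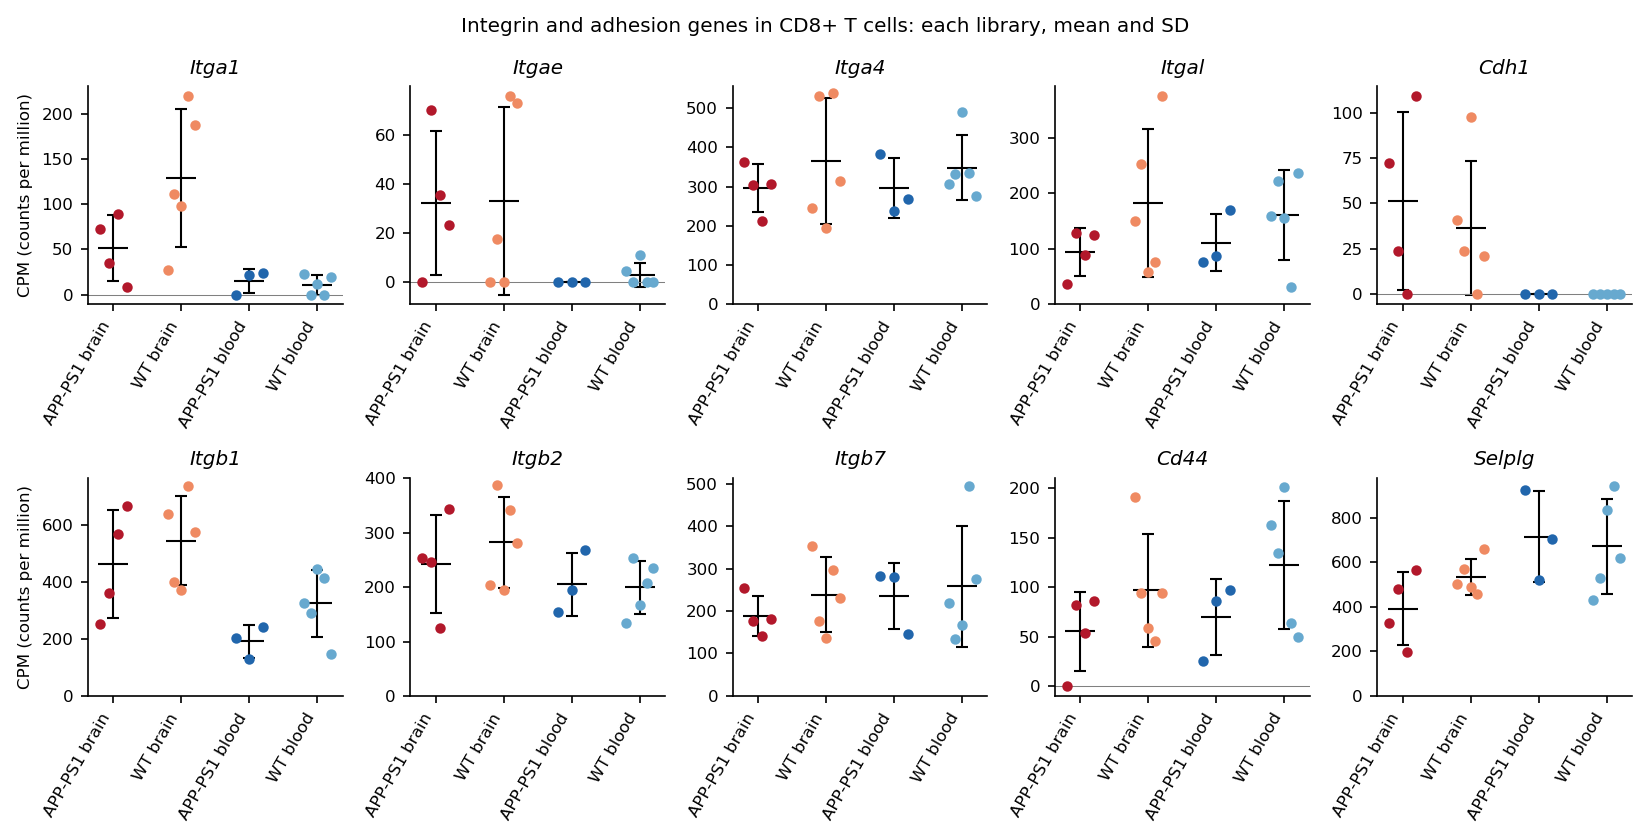
CPM of each of the 10 genes (vertical axis, each panel with its own scale) in APP-PS1 brain, WT brain, APP-PS1 blood and WT blood, with 1 point per library and the group mean with its SD. For Itgb1 the 4 APP-PS1 brain libraries, at 253 CPM or more, lie above the 3 APP-PS1 blood libraries, at 243 CPM or less; for Itga1 the 5 WT brain libraries, at 27.2 CPM or more, lie above the 5 WT blood libraries, at 23.3 CPM or less.

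The other beta chains did not pass the test in brain against blood. Itgb2, the beta 2 chain of LFA-1, stood at 253, 246, 124 and 345 CPM in APP-PS1 brain, 204, 388, 195, 341 and 282 CPM in WT brain, 154, 194 and 268 CPM in APP-PS1 blood and 135, 253, 167, 208 and 236 CPM in WT blood. The groups overlapped in both strains, and the log2 fold change over both strains was 0.37 (SE 0.28, adjusted p = 0.643, edgeR). Itgb7 encodes the beta 7 chain of the gut-homing receptor, which is also the partner of CD103. It stood at 253, 176, 142 and 180.1 CPM in APP-PS1 brain, 354, 177, 137, 296 and 229.6 CPM in WT brain, 282, 281 and 146 CPM in APP-PS1 blood and 219, 134, 167, 495 and 275 CPM in WT blood. Brain and blood overlapped here too, with the highest value in WT blood replicate 4, and the log2 fold change was -0.26 (SE 0.30, adjusted p = 0.803).

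Within a library, the beta chains can be set against each other without reference to library size. Itgb1 made up 33.3% to 68.1% of the counts of Itgb1, Itgb2 and Itgb7 in APP-PS1 brain, with a median of 51.1%, and 41.5% to 53.6% in WT brain, with a median of 52.9%. In APP-PS1 blood the share was 21.4% to 37.04% with a median of 32.0%, and in WT blood 22.4% to 57.1% with a median of 43.02%. The ranges of brain and blood overlapped in both strains. Itgb7 made up a median of 19.7% in APP-PS1 brain (15.1% to 33.3%) and 21.2% in WT brain (18.3% to 29.5%). In blood the median was 44.0% in APP-PS1 mice (22.2% to 46.4%) and 32.2% in WT mice (19.8% to 44.3%), so its ranges overlapped too. The shares of a library make up a whole, so a higher share of Itgb1 by itself lowers the others. These shares are a description, with no test, and an APP-PS1 blood library held only 6 to 13 counts of each of these genes.

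**Figure D3:**
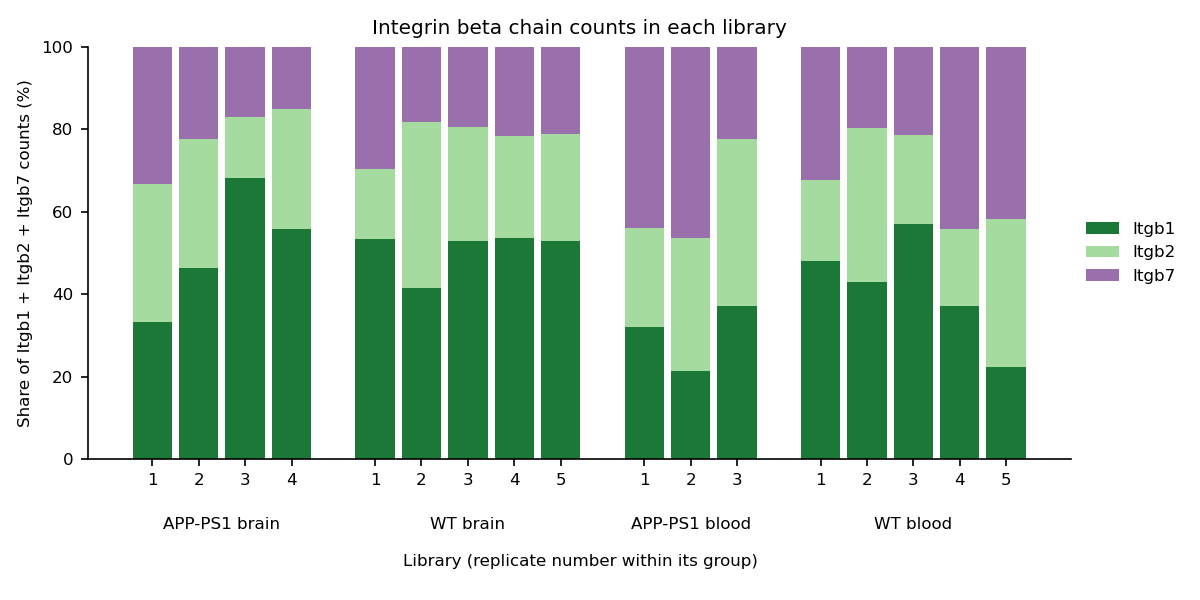
Share of the summed Itgb1, Itgb2 and Itgb7 counts held by each gene (vertical axis, percent) in each library (horizontal axis, replicate number within its group), with APP-PS1 brain, WT brain, APP-PS1 blood and WT blood from left to right. The median Itgb1 share is 51.1% in APP-PS1 brain and 52.9% in WT brain, against 32.0% in APP-PS1 blood and 43.02% in WT blood.

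Among the alpha chains, Itga1 was higher in WT brain than in WT blood. It encodes CD49a, the alpha chain of the collagen receptor with beta 1. Itga1 had 2, 19, 5, 29 and 18 counts in the WT brain libraries, or 27.2, 112, 97.7, 220.0 and 188 CPM, against 5, 0, 1, 0 and 2 counts in the WT blood libraries, or 23.3, 0, 11.1, 0 and 19.6 CPM. The groups did not overlap, although the lowest brain and the highest blood library were close. The means were 129 ± 76.4 CPM in WT brain and 10.8 ± 10.8 CPM in WT blood (SD, n = 5 in each; exact two-sided permutation p = 0.00794, the smallest that 5 against 5 libraries can give). When all 13539 genes with a count were tested without the filter, Itga1 was called in this comparison as 1 of the 10 members (log2 fold change 3.12, adjusted p = 0.0408, edgeR), where 0.118% of genes were called.

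In APP-PS1 mice Itga1 had 2, 3, 5 and 1 counts in brain, or 72.3, 35.1, 88.9 and 7.83 CPM, against 0, 1 and 1 counts in blood, or 0, 21.6 and 24.3 CPM. The groups overlapped through APP-PS1 brain replicate 4 (exact two-sided permutation p = 0.229, where 4 against 3 libraries cannot go below 0.0571). No member was called in APP-PS1 brain against APP-PS1 blood without the filter, where 0.0665% of genes were called. Over both strains, with the tissue labels permuted within each strain, Itga1 had 84 counts in 9 brain libraries against 10 in 8 blood libraries (exact permutation p = 0.00295, two-sided, 8820 permutations, a test chosen after the data were seen). Every brain library and 5 of the 8 blood libraries had an Itga1 count. Leaving out 1 library at a time gave 0.000397 to 0.00582, but the fit without the filter did not call Itga1 over both strains (adjusted p = 0.178, edgeR). Pelo, a gene inside the span of Itga1 on the same strand, was counted 4 times in APP-PS1 brain, 18 in WT brain, 3 in APP-PS1 blood and 16 in WT blood, and its part in the Itga1 counts was not tested.

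Itgae, which encodes the alpha E chain (CD103), had few counts and mostly in brain. It had 0, 6, 2 and 3 counts in APP-PS1 brain and 0, 3, 0, 10 and 7 in WT brain, against none in the 3 APP-PS1 blood libraries and 1, 0, 1, 0 and 0 in WT blood. In CPM these were 0, 70.2, 35.6 and 23.5 in APP-PS1 brain and 0, 17.7, 0, 75.9 and 73.0 in WT brain, against at most 11.1 in blood. Brain libraries at 0 overlapped with blood in both strains. Neither strain passed alone (exact two-sided permutation p = 0.229 in APP-PS1 mice and 0.167 in WT mice, where 5 against 5 libraries can reach 0.00794). In APP-PS1 mice the summed brain level was 1.56 times that of 3 counts, taken as the floor of the blood group. The 11 brain counts had 95% counting limits of 18.5 to 66.3 CPM, from below that floor of 23.7 CPM to above it. APP-PS1 brain replicate 2 held 6 of those 11 counts, and without it brain had 23.6 CPM, no more than the floor of 23.7 CPM. Over both strains Itgae had 31 counts in 6 of 9 brain libraries against 2 counts in 2 of 8 blood libraries (exact permutation p = 0.0186 within strains, two-sided, and 0.00833 to 0.0437 with 1 library left out). The fit without the filter did not call it (adjusted p = 0.205, edgeR).

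Cdh1, which encodes E-cadherin, the ligand of CD103, was counted in brain libraries and in none from blood. Cdh1 had 2, 2, 0 and 14 counts in APP-PS1 brain and 3, 4, 5, 0 and 2 in WT brain, against 0 in each of the 8 blood libraries. As levels these were 72.3, 23.4, 0 and 109.6 CPM in APP-PS1 brain and 40.8, 23.5, 97.7, 0 and 20.9 CPM in WT brain. APP-PS1 brain replicate 3 and WT brain replicate 4 were at 0 as in blood, so the groups overlapped there. In WT mice the difference passed narrowly (exact two-sided permutation p = 0.0476). By summed counts the WT brain level was 5.32 times the floor of 3 counts in the blood group. The difference no longer passed without any one of WT brain replicates 1, 2, 3 and 5 or any one WT blood library (exact permutation p of 0.0794 to 0.0952). In APP-PS1 mice it did not pass (exact permutation p = 0.229, with the summed brain level at 2.56 times the blood floor). APP-PS1 brain replicate 4 held 14 of those 18 counts, and without it APP-PS1 brain had 23.6 CPM, no more than the blood floor of 23.7 CPM. Over both strains Cdh1 had 32 counts in brain and 0 in blood, which allows up to 4.16 CPM over the blood libraries together. The summed brain level was 9.40 times that floor, or 6.26 times without APP-PS1 brain replicate 4. None of these multiples includes the counting error of the brain counts. The exact two-sided permutation p within strains was 0.0112 (0.00204 to 0.0341 with 1 library left out), and the fit without the filter called Cdh1 (adjusted p = 0.0218, edgeR), where 0.34% of 13539 genes were called and 2 of the 10 members, Itgb1 and Cdh1.

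E-cadherin is also made by epithelia and by some dendritic cells, and markers of both were counted beside Cdh1. Of 3 epithelial markers, Epcam had 6 counts in WT blood and none elsewhere, Krt8 had none in any library and Krt18 had 1, in APP-PS1 brain. Of 5 markers of the choroid plexus, the epithelium inside the brain, Kl was counted once in APP-PS1 brain and the other 4 (Folr1, Clic6, Kcne2 and Otx2) had none in any library. Of 5 markers of dendritic and Langerhans cells, Cd207 and Flt3 had no count in any library, and Siglech had 1, in WT blood. Zbtb46 was counted 4 times in APP-PS1 brain and 6 times in WT brain, against none in APP-PS1 blood and 1 in WT blood, and Xcr1 had none in APP-PS1 brain and 4 in WT brain, against none in APP-PS1 blood and 8 in WT blood. The summed level of the dendritic list was 0 to 31.3 CPM in APP-PS1 brain and 0 to 73.0 CPM in WT brain, against 0 in APP-PS1 blood and 4.66 to 49.1 CPM in WT blood, and its part in the Cdh1 result was not tested. The choroid plexus and dendritic lists were added after the data were seen.

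The brain libraries with most Itga1 and Itgae were not those with most Cdh1. WT brain replicate 4 held the highest Itga1 level of all libraries, 220.0 CPM, and the highest Itgae level, 75.9 CPM, with no Cdh1 count in 131800. APP-PS1 brain replicate 4 held the highest Cdh1 level, 109.6 CPM, with the lowest Itga1 level among brain libraries, 7.83 CPM. These values were picked after they were seen, and counts this low carry a large counting error.

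The alpha chains of the circulating receptors did not pass the test between tissues. Itga4, the alpha chain that pairs with beta 1 or beta 7, stood at 362, 304, 213 and 305 CPM in APP-PS1 brain, 245, 529.7, 195, 539 and 313 CPM in WT brain, 384, 237 and 268 CPM in APP-PS1 blood and 307, 332, 491, 335 and 275 CPM in WT blood. Brain and blood overlapped, with the 2 highest and the 2 lowest values in brain, and with a log2 fold change over both strains of 0.02 (SE 0.25, adjusted p = 0.982, edgeR). Itgal, the alpha L chain of LFA-1, stood at 36.2, 129, 88.9 and 125 CPM in APP-PS1 brain, 149.7, 253, 58.6, 75.9 and 376 CPM in WT brain, 76.8, 86.3 and 170.3 CPM in APP-PS1 blood and 158, 221, 156, 31.9 and 236 CPM in WT blood. WT brain spread most widely, and the log2 fold change was 0.02 (SE 0.40, adjusted p = 0.987). With these standard errors a change of the size seen for Itgb1 lies outside about 2 standard errors for both genes. The 3′ end of Itga4 overlaps Cerkl on the opposite strand, and Cerkl had 5, 17, 1 and 4 counts in APP-PS1 brain, WT brain, APP-PS1 blood and WT blood, against 87, 219, 37 and 201 for Itga4.

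Selplg, which encodes the selectin ligand PSGL-1, tended in the opposite direction to Itgb1 without passing the threshold. Selplg stood at 326, 480.0, 196 and 564 CPM in APP-PS1 brain, 504, 571, 489, 455 and 657 CPM in WT brain, 922, 518 and 706 CPM in APP-PS1 blood and 429, 529.8, 836, 942 and 619 CPM in WT blood. Brain and blood overlapped in both strains, although the 4 highest values all came from blood. The log2 fold change over both strains was -0.58 (SE 0.22, unadjusted p = 0.0112, adjusted p = 0.172, edgeR), with -0.79 in APP-PS1 mice (SE 0.35, adjusted p = 0.411) and -0.37 in WT mice (SE 0.27, adjusted p = 0.814). The ratio of Itgb1 to Selplg counts was 0.756 to 2.91 in APP-PS1 brain and 0.701 to 1.62 in WT brain, against 0.222 to 0.345 in APP-PS1 blood and 0.238 to 0.761 in WT blood. The ranges of brain and blood lay apart in APP-PS1 mice and overlapped in WT mice. The pair was chosen for its opposite changes, so the difference of this ratio between tissues is fixed in part by that choice.

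Cd44, the hyaluronan receptor raised on antigen-experienced T cells, had low counts and no difference that passed. It stood at 0, 82.0, 53.3 and 86.1 CPM in APP-PS1 brain, 191, 94.2, 58.6, 45.5 and 93.9 CPM in WT brain, 25.6, 86.3 and 97.3 CPM in APP-PS1 blood and 163, 134, 201, 63.9 and 49.1 CPM in WT blood. Brain and blood overlapped, and the log2 fold change over both strains was -0.28 (SE 0.47, adjusted p = 0.879, edgeR). Over the 7 tested members the median log2 fold change in that comparison was 0.02, against 0.03 over all tested genes.

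**Figure D4:**
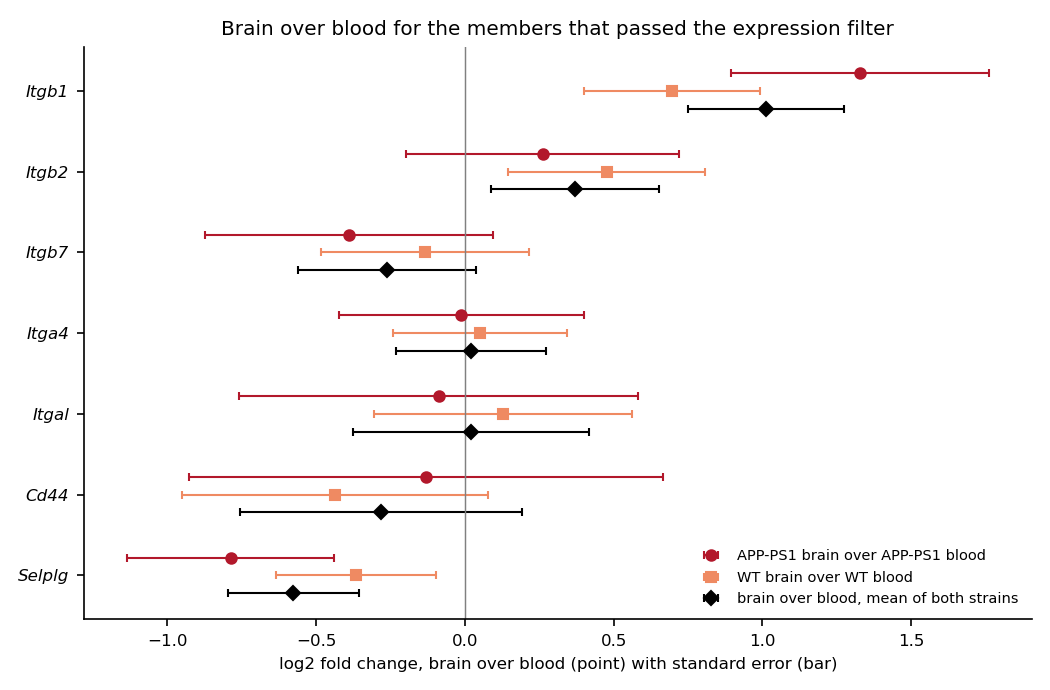
Log2 fold change of brain over blood (horizontal axis) with its standard error for the 7 genes that passed the expression filter, in APP-PS1 mice, in WT mice and as the mean of both strains. Itgb1 lies highest, at 1.01 over both strains, and Selplg lowest, at -0.58, with Itga4 and Itgal both at 0.02.

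Between APP-PS1 and WT cells no tested member passed the threshold. In APP-PS1 brain against WT brain 0 of the 7 members were called by edgeR and by DESeq2, and none had an unadjusted p under 0.05. Of all genes 0.0% were called, and 4.14% by edgeR and 4.56% by DESeq2 had an unadjusted p under 0.05. All 7 log2 fold changes were negative, from -0.21 for Itgb1 to -0.88 for Itgal (SE 0.51, adjusted p = 0.999), with a median of -0.43 against -0.04 over all tested genes. With sex as a term in the fit, 5 of the 7 were negative, with Itgb1 at 0.26 and Itgb2 at 0.23. In APP-PS1 blood against WT blood 0 of the 7 were called by edgeR and by DESeq2, with 1 at an unadjusted p under 0.05 by edgeR and none by DESeq2, against 0.0423% of all genes called by edgeR and 8.03% at an unadjusted p under 0.05. That gene was Itgb1, with a log2 fold change of -0.85 (SE 0.42, unadjusted p = 0.0495, adjusted p = 0.618). The median there was -0.34 against -0.05 over all genes, and Itgb2 and Selplg, at -0.04 and -0.01, turned positive under another scaling (0.012 and 0.051 with RLE size factors). The 2 strain comparisons and the tissue comparisons share libraries, so their values are not independent.

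The members below the filter passed no test between strains either. Itga1 averaged 51.04 ± 36.5 CPM in APP-PS1 brain (SD, n = 4) and 129 ± 76.4 CPM in WT brain (SD, n = 5), with overlap (exact two-sided permutation p = 0.0952, where 0.0159 is the smallest possible). Leaving out 1 of the 9 libraries at a time gave an exact permutation p of 0.0286 to 0.214. The lowest came without WT brain replicate 1, the lowest of its group, and was the smallest possible there. Itgae averaged 32.3 ± 29.3 CPM in APP-PS1 brain and 33.3 ± 38.3 CPM in WT brain (exact permutation p = 1.0), and Cdh1 averaged 51.3 ± 49.2 CPM in APP-PS1 brain and 36.6 ± 37.1 CPM in WT brain (exact permutation p = 0.651). In blood the exact permutation p was 0.571 for Itga1 and 0.714 for Itgae (smallest possible 0.0357), and Cdh1 was at 0 in both strains.

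Related genes of the adhesion system were counted as lists. Among 29 ligands and other adhesion receptors, 8 were tested in brain against blood over both strains. The most abundant were Cd47, the integrin-associated protein, and Cd2, a receptor that strengthens T cell contacts. Cd47 averaged 790.1 ± 329.9 CPM in APP-PS1 brain (SD, n = 4) and 662 ± 112 CPM in WT brain (SD, n = 5), against 953 ± 131 CPM in APP-PS1 blood (SD, n = 3) and 773 ± 139.8 CPM in WT blood (SD, n = 5). The log2 fold change was -0.32 for Cd47 (SE 0.19, adjusted p = 0.507, edgeR) and 0.02 for Cd2 (SE 0.23, adjusted p = 0.986), and neither passed.

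Of 6 partners of E-cadherin and CD103, 1 was tested: Klrg1, an inhibitory receptor of effector T cells that binds E-cadherin. Klrg1 averaged 31.8 ± 30.1 CPM in APP-PS1 brain and 30.1 ± 25.2 CPM in WT brain, against 105 ± 34.8 CPM in APP-PS1 blood and 137 ± 91.2 CPM in WT blood, and fell by 2.02 on the log2 scale over both strains (SE 0.56, adjusted p = 0.0314, edgeR). This call was lost when any of 6 single libraries was left out (adjusted p up to 0.123, without WT blood replicate 5), without the filter (0.0852) and when 5 CPM in 3 libraries was required (0.0674). It was also lost without APP-PS1 brain replicate 1 and APP-PS1 blood replicate 1 together (0.0547). The catenin Ctnnb1, which links E-cadherin to the cytoskeleton, lay below the filter, at 24.7 CPM in APP-PS1 brain and 35.1 CPM in WT brain, against 32.8 CPM in APP-PS1 blood and 39.9 CPM in WT blood.

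The machinery that activates integrins showed no called gene. Of 31 activation and adaptor genes, 21 were tested and 0 passed over both strains, with a median log2 fold change of -0.06, and Rac2 and Coro1a, regulators of the actin cytoskeleton, had 0.01 and 0.08. Of 19 partners and glycosylating enzymes of PSGL-1 and CD44, 8 were tested and 0 passed, with a median of 0.01. B4galt1, a galactosyltransferase, had 0.02, and Srgn, a proteoglycan that can bind CD44, had -0.01. Of 11 genes of TGF-beta input, the signal that induces CD103 on T cells, 3 were tested and 0 passed, with a median of 0.87. Skil, a feedback inhibitor of that pathway, had 0.88 (SE 0.31, adjusted p = 0.134) and Runx3, a transcription factor of resident CD8+ T cells, had 0.87 (SE 0.36, adjusted p = 0.230). Of the other 19 integrin chains, 10 had a count in some library and none passed the filter. Itga6, a laminin receptor chain, averaged 29.1 CPM in APP-PS1 brain and 5.62 CPM in WT brain, against 40.1 CPM in APP-PS1 blood and 36.03 CPM in WT blood, and Itgav, a chain of vitronectin receptors, averaged 23.6 CPM in APP-PS1 brain and 9.60 CPM in WT brain, against 0 in APP-PS1 blood and 17.7 CPM in WT blood.

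The genes whose levels ran most like those of the members over the 17 libraries were found by Spearman correlation of log2(CPM + 10), given as a description. All points share the depth and normalization of their library. For Itgb1 the most like were Cd8a, which encodes the CD8 alpha chain (rho 0.870), Gm4070 (0.809) and Crebrf (0.765). Cd8a averaged 598 ± 168 CPM in APP-PS1 brain and 718 ± 188 CPM in WT brain, against 335 ± 77.3 CPM in APP-PS1 blood and 518 ± 97.0 CPM in WT blood, the same order of groups as Itgb1, and its log2 fold change over both strains was 0.62 (SE 0.22, adjusted p = 0.119, edgeR). For Selplg they were Ube2h (0.824), Pde2a_1 (0.799) and Stk38 (0.754), and for Cd44 Daglb (0.860), Foxo3 (0.816) and Ddx3x (0.791). Itga4 ran most like Mtdh and Myeov2 (0.806 each) and Emp3 (0.777), and Itgal most like Cfl1 (0.782), Wtap (0.779) and Lsm12 (0.777). Itgb2 was nearest to Hint3 (0.737), Eif2s3x (0.725) and Matr3 (0.699), and Itgb7 to Cuta (0.750), Saraf (0.699) and Ywhah (0.669). Of pairs among the members themselves, Cd44 and Itgal were the most alike, with a rho of 0.59, and no member was among the 3 genes most like its partner chain.

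The remaining genes lie on GRCm38, all protein coding, at these places. Itgae lies on chromosome 11 from 73090583 to 73147446, Itga4 on chromosome 2 from 79255426 to 79333123 and Itgal on chromosome 7 from 127296260 to 127335138. Itgb2 lies on chromosome 10 from 77530252 to 77565708 and Itgb7 on chromosome 15 from 102215995 to 102231944. Cdh1 lies on chromosome 8 from 106603351 to 106670246, Cd44 on chromosome 2 from 102811141 to 102901665 and Selplg on chromosome 5 from 113818536 to 113832644.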

How the data were processed

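Per the labels, CD8+ T cells came from mouse brain and blood. The authors deposited raw counts, whole numbers with no normalization, for each gene in each library. The build GRCm38 and the tools Bowtie2 2.2.2, HTSeq 0.11.2, FastQC and DESeq2 appear in the submitters' processing notes, with no role or order. Not given in the sources used here are the sort, the annotation, the strand setting and any molecular identifiers. Reads of overlapping genes therefore cannot be told apart. Over 29 same-group pairs, chi-square per degree of freedom was 2.59 to 5.69, and no pair was identical. Each library was counted once, although these values cannot show whether libraries shared a mouse.

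The test was the robust quasi-likelihood F test of edgeR 4.0.16 (R 4.3.3) on TMM-scaled counts of 2366 genes kept by filterByExpr, with all 17 libraries fitted by 4 group means and Benjamini-Hochberg adjustment over all genes within each comparison. Standard errors are the size of the log2 fold change over the square root of F. The common biological coefficient of variation was 0.370. The 3 members below the filter had 12 exact permutation tests on CPM with SciPy 1.17.1, unadjusted. Exon lengths and coordinates came from GENCODE M21 (48349 rows matched). Alternatives were RLE size factors, DESeq2 1.42.0, no filter, a 5 CPM filter, sex as a term, no mitochondrial, ribosomal or haemoglobin genes, and leaving libraries out. The edgeR fit of the filtered genes was tested for brain against blood on simulated data, with the same changes in both strains. The permutation tests, the fit without the filter and DESeq2 were not tested in that way. Named genes are all members, called genes of the related lists and otherwise up to 2 per list by mean CPM. The members and lists were chosen with earlier results of these data known. Of the genes that rule gives, 1 is not reported here. Floors cover only the counting error of the blood counts, and not that of the brain counts set against them.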

Additional observations from a re-analysis of the deposited data

Results flagged for a closer look

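Of 29 sets of values of 1 member in 1 group of 4 or 5 libraries, 1 held a library that stood far from the others. It was Itga4 in WT blood, where replicate 3 had 491 CPM and the other 4 libraries had 275 to 335 CPM. Chance alone marks about 1 in 20 such sets.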

How the results depend on the processing

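Of 1036 alternative fold changes, 963 kept direction and side of the threshold, 71 turned round and 2 lost the call of Itgb1. Itgb1 stayed called over both strains under RLE size factors, DESeq2, both other filters, sex as a term, no mitochondrial, ribosomal or haemoglobin genes and without APP-PS1 brain replicate 1 and APP-PS1 blood replicate 1 (the pair) (adjusted p up to 0.0425). The causes were not tested. Without a filter the median of all genes moved to 0.21 over both strains and -0.40 in APP-PS1 against WT blood. With no filter or a filter of 5 CPM, 1 member was called in WT brain against blood and 2 over both strains (0 to 1 over both strains with 1 library left out). Itga4 turned to 0.12 (no filter), 0.14 (5 CPM) and 0.12 (without the pair) in APP-PS1 brain against blood, and to 0.10, 0.099 and 0.089 in the strain difference. Itgal turned to 0.066 and 0.078 and Cd44 to 0.031 and 0.043 with no filter and 5 CPM in APP-PS1 brain against blood, and Itgal to -0.018 without the pair over both strains. With sex as a term, Itgb1 and Itgb2 turned to 0.26 and 0.23 in APP-PS1 against WT brain. In APP-PS1 against WT blood, Itgb2 turned to 0.012 (RLE), 0.013 (DESeq2), 0.44 (sex) and 0.16 (without the pair), and Selplg to 0.051, 0.053 and 0.32 under the first 3.

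With 1 library left out, log2 values spanned 0 in APP-PS1 brain against blood for Cd44 (-0.54 to 0.16), Itga4 (-0.11 to 0.14), Itgal (-0.33 to 0.35) and Itgb2 (-0.043 to 0.50). In WT brain against blood they spanned 0 for Itga4 (-0.16 to 0.19), Itgal (-0.30 to 0.36) and Itgb7 (-0.32 to 0.17), and over both strains for Itga4 (-0.085 to 0.10) and Itgal (-0.20 to 0.23). In the strain difference they did so for Cd44 (-0.10 to 0.66), Itga4 (-0.20 to 0.14), Itgal (-0.46 to 0.24) and Itgb2 (-0.50 to 0.040), and in APP-PS1 against WT blood for Itgb2 (-0.28 to 0.18), Itgb7 (-0.38 to 0.14) and Selplg (-0.15 to 0.16). Below the filter, CPM differences ranged from -103 to -55.1 for Itga1, -13.6 to 9.78 for Itgae and -4.67 to 31.9 for Cdh1 in APP-PS1 against WT brain, from -0.0260 to 12.1 for Itga1 in APP-PS1 against WT blood, and from 21.3 to 45.7 for Cdh1 in WT brain against blood.

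No paired analysis was possible because no label ties brain to blood libraries. Depth limits Itga1, Itgae, Cdh1 and Cd44, and APP-PS1 blood most.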
